A study of Homo sapiens with 9 samples.

Results

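The genes described here are 9 that are linked, as MATR3 is, to amyotrophic lateral sclerosis (ALS), the loss of motor neurons: TARDBP, TAF15, EWSR1, SOD1, VCP, OPTN, C9orf72, UBQLN2 and PFN1. They were chosen by name, with earlier results of these data known. All 9 were found among the 21003 genes of the count table, and all 9 passed the low-count filter that left 17777 genes to test. Total RNA was sequenced from HAP1 cells, a near-haploid human line derived from the chronic myeloid leukaemia line KBM-7. The MATR3 knockout (KO) libraries were KO clone 1 (n = 2) and KO clone 5 (n = 2), and the wild-type (WT) libraries were WT clone 1 (n = 3) and WT clone 7 (n = 2). Each clone is a single line bought from a supplier, the WT lines came from different supplier batches, and no agent was given to any group. Whether replicates of a clone were grown separately is not given in the labels, and the p-values then rest on a spread that may be technical. However they were grown, the tests treat libraries of a clone as independent, although each genotype has only 2 clones. P-values and intervals may therefore understate the spread between clones.

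MATR3 encodes matrin 3, a nuclear protein that binds RNA and DNA, and mutations in it cause a rare familial form of ALS. The other genes fall into a few roles. TDP-43 (from TARDBP), TAF15 and EWSR1 are RNA-binding proteins with low-complexity segments that can aggregate in motor neurons. VCP, ubiquilin 2, optineurin and C9orf72 work in the disposal of proteins by the proteasome or by autophagy, SOD1 disposes of superoxide, and profilin 1 supplies actin monomers to growing filaments. All are made in most cell types, and HAP1 cells are not neurons. The question asked here is whether the RNA level of each gene differs between the MATR3 KO clones and the WT clones. Genotype goes with clone, so loss of MATR3 cannot be told apart from other differences between these lines.

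The knockout was visible in every library: MATR3 averaged 44.4 ± 3.58 CPM in KO (SD, n = 4) and 219 ± 5.83 CPM in WT libraries (SD, n = 5). These values are for the entry ENSG00000015479, and a further entry named MATR3 was not examined by itself. CPM are read counts scaled to a common library size by the trimmed-mean (TMM) method. Library totals ran from 16103754 to 34407309 counts. WT clone 1 replicate 1 stood apart in that repeats took 14.0% of its counts, against 7.90 to 11.2% in the 8 other libraries. Of 8 haematopoietic markers 1 was in the table and 0 passed the filter, and their summed level was 0.190 to 0.436 CPM in KO and 0.0621 to 0.264 CPM in WT libraries. Of 8 neuronal markers 5 were tested and 3 rose (NEFL, SYT1 and NEFM), where 11.3% of all tested genes rose. The summed level of the markers was 76.3 to 116 CPM in KO and 68.7 to 93.1 CPM in WT libraries. NEFL averaged 29.6 ± 14.3 CPM in KO and 0.769 ± 0.256 CPM in WT libraries (SD, n = 4 and 5). SYT1 and NEFM were low, with 3 to 81 and 1 to 30 counts per library. The other 2 tested markers, TUBB3 and MAP2, had log2 differences of -0.26 (edgeR adjusted p = 0.10) and -0.39, with TUBB3 at -0.42 in KO clone 5 (edgeR adjusted p = 0.0041) and MAP2 at -1.74 in KO clone 1 (edgeR adjusted p = 0.0017). Of 4 motor neuron markers 2 were tested and 0 passed (edgeR, 0 at an unadjusted p below 0.05), and 1 of 5 fibroblast markers was tested and rose. The part of these markers in the results below was not tested.

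Of the 9 genes, 0 differed between KO and WT cells by edgeR's quasi-likelihood test at an adjusted p below 0.05 (Benjamini-Hochberg over all rows tested), in data in which 23.2% of all tested genes did (11.3% higher and 11.9% lower in KO). At an unadjusted p below 0.05 there was 1, OPTN, whereas 35.8% of all tested genes had such a p. That fit did not use the replicate number. With replicate number as a block, 1 of the 9 passed, OPTN (edgeR adjusted p = 0.0466). WT clone 1 replicate 3 is the only library of its number, so the block also takes it out of the comparison. With that library left out and no block, 0 of the 9 passed. DESeq2 called 0 of the 9, with 2 at an unadjusted p below 0.05 (OPTN and TAF15), and the authors' deposited table also holds 0 with an adjusted p below 0.05. KO and WT libraries overlapped for each of the 9, whereas they did not overlap for 23.4% of tested genes. Of the log2 differences (KO over WT), 7 were above 0 and 2 below, with a median of 0.12 beside 0.00 over all tested genes.

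**Figure D1:**
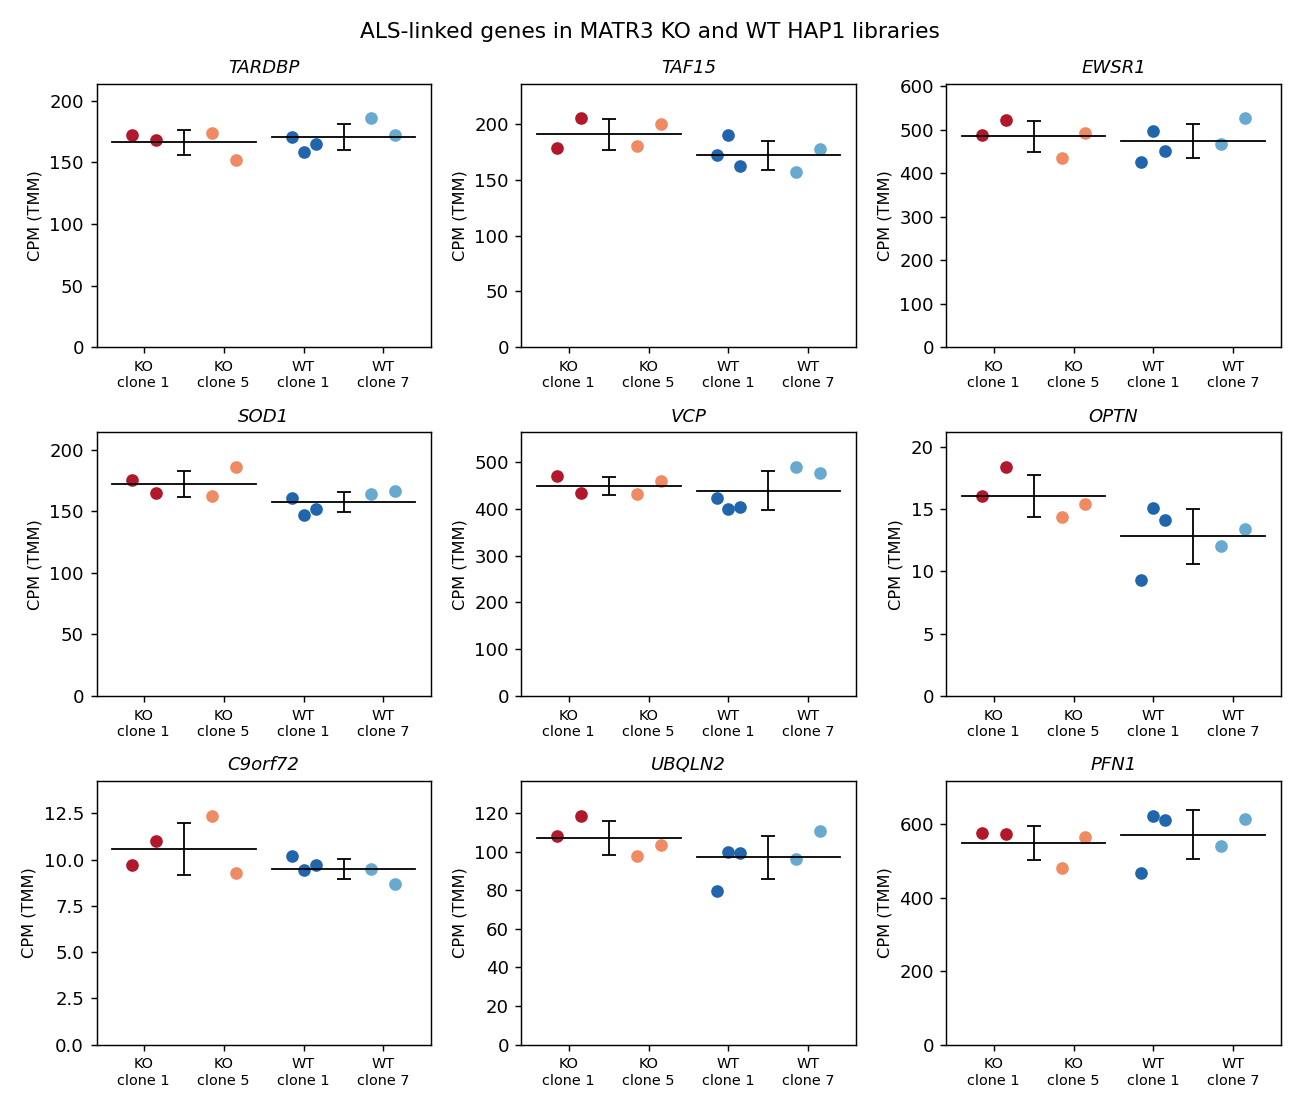
CPM after TMM scaling (vertical axes, starting at 0) of the 9 genes in each library, by clone; horizontal lines are the means of the 4 KO and the 5 WT libraries and the bars their SD. KO and WT points overlap in every panel, and the lowest OPTN point is WT clone 1 replicate 1 at 9.31 CPM.

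TARDBP encodes TDP-43, which represses cryptic exons and regulates its own mRNA, and which forms the inclusions found in most cases of ALS. The gene (Ensembl ENSG00000120948) lies on the plus strand of chromosome 1 at 11012344 to 11030528 (hg38, GENCODE 44), and its 3′ part overlaps MASP2 on the opposite strand. TARDBP was at 172 and 168 CPM in KO clone 1 and at 174 and 152 CPM in KO clone 5, against 171, 158 and 165 CPM in WT clone 1 and 186 and 172 CPM in WT clone 7. The lowest library is KO clone 5 replicate 2 and the highest WT clone 7 replicate 1, and the groups overlap. The log2 difference was -0.03 (SE 0.06, 95% interval -0.17 to 0.10, edgeR adjusted p = 0.76), which as a ratio of KO to WT is 0.976 with an interval of 0.887 to 1.07.

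TAF15 and EWSR1 encode related RNA-binding proteins that associate with RNA polymerase II transcription. TAF15 (ENSG00000270647, chromosome 17, 35809482 to 35864615, plus strand) was at 178 and 205 CPM in KO clone 1 and at 180.0 and 200.4 CPM in KO clone 5, against 172, 190.3 and 162 CPM in WT clone 1 and 157 and 177 CPM in WT clone 7. The KO libraries sit above all but 1 of the WT libraries, WT clone 1 replicate 2 at 190.3 CPM. The log2 difference was 0.15 (SE 0.07, interval -0.0015 to 0.31, edgeR adjusted p = 0.15), a ratio of 1.11 (0.999 to 1.24). The clones taken singly gave 0.17 (KO clone 1) and 0.15 (KO clone 5), each against the mean of the WT clones. TAF15 shares exon sequence with a non-coding RNA on the same strand that held 258 counts over the 9 libraries, and with HEATR9 on the other strand.

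EWSR1 (ENSG00000182944, chromosome 22, 29268009 to 29300525, plus strand) encodes the protein joined to ETS factors by translocation in Ewing sarcoma. EWSR1 was at 488 and 523 CPM in KO clone 1 and at 435 and 491 CPM in KO clone 5, against 425, 497 and 451 CPM in WT clone 1 and 467 and 527 CPM in WT clone 7. The ranges of the groups nearly coincide. Its log2 difference was 0.03 (SE 0.08, interval -0.14 to 0.20, edgeR adjusted p = 0.81), with 0.08 for KO clone 1 alone and -0.04 for KO clone 5 alone. RHBDD3 overlaps exons of EWSR1 on the opposite strand.

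SOD1 (ENSG00000142168, chromosome 21, 31659666 to 31668931, plus strand) encodes the copper- and zinc-dependent superoxide dismutase of the cytosol, in which the first ALS mutations were found. SOD1 was at 175 and 165 CPM in KO clone 1 and at 163 and 186 CPM in KO clone 5, against 161, 147 and 152 CPM in WT clone 1 and 164 and 166 CPM in WT clone 7. The 2 highest libraries are KO and the 3 lowest WT, with overlap between 163 and 166 CPM. The log2 difference was 0.12 (SE 0.06, interval -0.01 to 0.26, edgeR adjusted p = 0.17), a ratio of 1.09 (0.994 to 1.20). CCS, the chaperone that delivers copper to SOD1, averaged 16.9 ± 1.34 CPM in KO and 14.4 ± 0.554 CPM in WT libraries (SD, n = 4 and 5). Its log2 difference was 0.23 (SE 0.08), which just missed the threshold (edgeR adjusted p = 0.0502) and passed it under 4 of 23 other settings. SOD2, the mitochondrial manganese enzyme, rose by 0.76 (SE 0.05, edgeR adjusted p = 1.4e-06) to 128 ± 5.00 CPM in KO, against 75.3 ± 3.63 CPM in WT libraries (SD, n = 4 and 5).

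**Figure D2:**
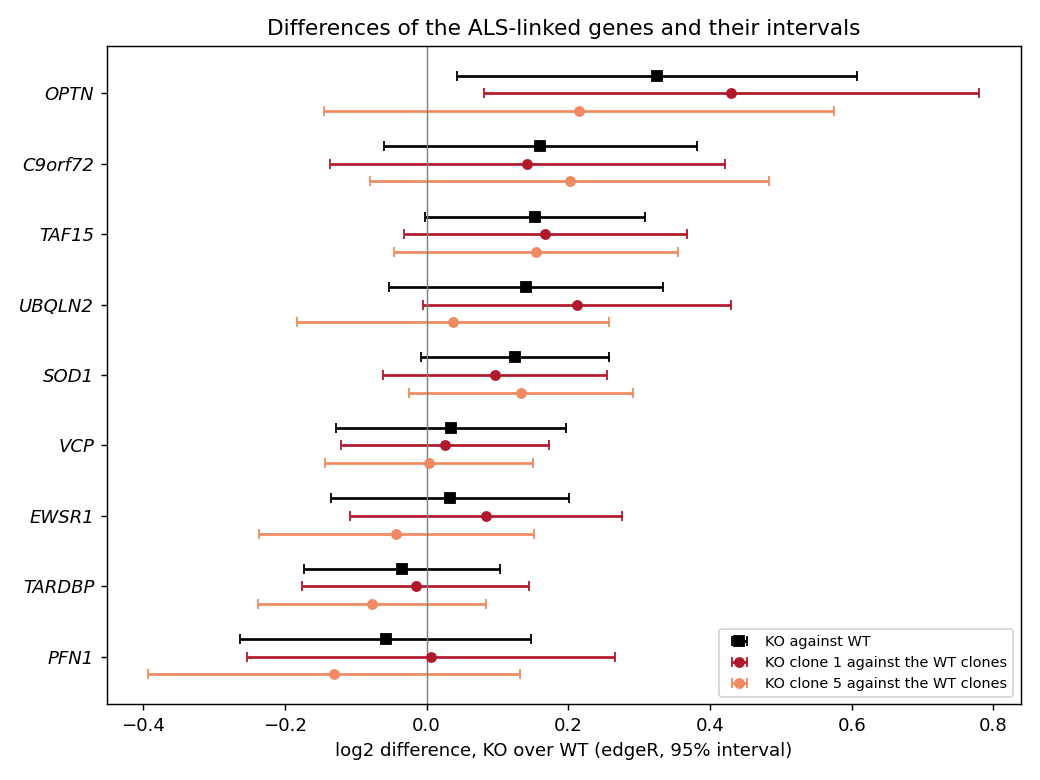
Log2 differences of the 9 genes (horizontal axis, KO over WT, edgeR) with 95% intervals for all KO against all WT libraries (squares) and for each KO clone against the mean of the WT clones (circles). The OPTN interval for KO against WT, 0.04 to 0.61, is the only one of the 9 that leaves out 0, and this p is unadjusted.

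OPTN encodes optineurin, an autophagy receptor that binds ubiquitin chains and LC3 and is phosphorylated by TBK1. Along with VCP and C9orf72 it is shown here by part of its promoter window, since these 3 carry the largest difference between genotypes, the largest difference between WT clones, and the ALS repeat. Sequences are from RefSeq (GRCh38.p14), 5′ to 3′ on the gene's strand, and each is the longest stretch of the window outside the gene's exons in GENCODE 44. Capitals mark GGGCGG in OPTN, CCAAT or its reverse complement ATTGG in VCP and GGGGCC in C9orf72.
OPTN, chr10:13099959-13100158, plus strand: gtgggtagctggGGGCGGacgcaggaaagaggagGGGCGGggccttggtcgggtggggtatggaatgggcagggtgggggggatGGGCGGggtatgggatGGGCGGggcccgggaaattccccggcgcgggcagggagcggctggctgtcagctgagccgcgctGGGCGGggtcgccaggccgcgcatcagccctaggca
VCP, chr9:35072669-35072875, minus strand: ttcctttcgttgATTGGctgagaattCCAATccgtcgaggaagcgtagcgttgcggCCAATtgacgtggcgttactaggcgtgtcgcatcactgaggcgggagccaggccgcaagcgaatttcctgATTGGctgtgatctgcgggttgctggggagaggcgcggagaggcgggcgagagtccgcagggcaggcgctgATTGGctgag
C9orf72, chr9:27573495-27573708, minus strand: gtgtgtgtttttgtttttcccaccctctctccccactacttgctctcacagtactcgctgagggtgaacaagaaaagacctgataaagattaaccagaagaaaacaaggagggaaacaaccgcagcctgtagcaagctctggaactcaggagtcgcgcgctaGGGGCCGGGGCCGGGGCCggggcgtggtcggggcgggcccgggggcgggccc

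The promoter table (windows of 300 bases around each start) held 9 windows for 7 of the genes, all but TAF15 and SOD1. GGGCGG or its reverse complement CCGCCC was present in 7 of the 9 windows (5 of the 7 genes). It was present in 44.95% of the 35116 windows of all genes. CCAAT or ATTGG was present in 2 of the 9 windows (2 of the 7 genes) and in 34.61% of all windows. TATAAA or TTTATA was present in 0 of the 9 windows and in 11.53% of all windows. In the stretches printed, the capitals occur 5 times for OPTN and 5 times for VCP. A run of at least 3 GGGGCC, in either orientation, occurred in 1 of the 9 windows, that of C9orf72, and in 0.028% of all windows. These are matches of letters in the reference genome, and the counts in the table say nothing of the number of repeats carried by HAP1 cells.

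OPTN (ENSG00000123240, chromosome 10, 13099449 to 13138308, plus strand) was at 16.0 and 18.4 CPM in KO clone 1 and at 14.3 and 15.4 CPM in KO clone 5, against 9.31, 15.1 and 14.2 CPM in WT clone 1 and 12.0 and 13.4 CPM in WT clone 7. The 3 highest libraries are KO, and KO clone 5 replicate 1 falls between WT clone 1 replicates 2 and 3. The log2 difference of 0.33 (SE 0.13, interval 0.04 to 0.61, edgeR adjusted p = 0.0958) is a ratio of 1.25 (1.03 to 1.52). With replicate number as a block the log2 difference was 0.37 and passed the threshold (edgeR adjusted p = 0.0466). Without WT clone 1 replicate 1, which held 9.31 CPM, it was 0.24 (edgeR adjusted p = 0.11). OPTN was higher in KO clone 1 by 0.43 (SE 0.16, edgeR adjusted p = 0.0853) and in KO clone 5 by 0.21 (SE 0.16, edgeR adjusted p = 0.41), each against the mean of the WT clones. The KO clone 1 value became 0.46 with the block (edgeR adjusted p = 0.0209) and 0.35 without WT clone 1 replicate 1 (edgeR adjusted p = 0.0157), both past the threshold. It was 0.47 without WT clone 1 replicate 3 and with no block (edgeR adjusted p = 0.0858). Without KO clone 1 replicate 2 it was 0.32 (edgeR adjusted p = 0.43) and without WT clone 7 replicate 1 it was 0.39 (edgeR adjusted p = 0.20). Leaving out either of these libraries also raised the unadjusted p for all KO against all WT libraries above 0.05. The difference between the KO clones themselves, clone 5 minus clone 1, was -0.22 (SE 0.19, edgeR adjusted p = 0.81). These values rest on 151 to 637 counts per library, and CCDC3, which overlaps OPTN exons on the opposite strand, held 3759 counts over the 9 libraries.

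C9orf72 lies on the minus strand of chromosome 9 (ENSG00000147894, 27535640 to 27573866), and expansion of the GGGGCC repeat in its first intron is the most common genetic cause of ALS. Its protein joins SMCR8 and WDR41 in a complex that acts on small GTPases and on autophagy. C9orf72 was at 9.70 and 11.0 CPM in KO clone 1 and at 12.4 and 9.27 CPM in KO clone 5, against 10.2, 9.42 and 9.69 CPM in WT clone 1 and 9.49 and 8.69 CPM in WT clone 7. The 2 highest libraries are KO, but KO clone 5 replicate 2 lies below 4 of the 5 WT libraries. The log2 difference was 0.16 (SE 0.10, interval -0.06 to 0.38, edgeR adjusted p = 0.30), from 140 to 382 counts per library. Of its partners SMCR8 fell by 0.27 (SE 0.05, edgeR adjusted p = 0.0025) to 59.6 ± 2.24 CPM in KO, against 71.9 ± 2.51 CPM in WT libraries (SD, n = 4 and 5). The call was lost in 2 of 23 other settings, with adjusted p-values up to 0.108. WDR41 averaged 30.9 ± 1.69 CPM in KO and 33.4 ± 2.35 CPM in WT libraries (SD, n = 4 and 5), a log2 difference of -0.11 (SE 0.07, edgeR adjusted p = 0.28).

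VCP (ENSG00000165280, chromosome 9, 35053928 to 35072668, minus strand) encodes the hexameric ATPase that pulls ubiquitinated proteins out of membranes and complexes. VCP was at 471 and 434 CPM in KO clone 1 and at 432 and 460.0 CPM in KO clone 5, against 423, 400.4 and 405 CPM in WT clone 1 and 490.2 and 476 CPM in WT clone 7. The KO libraries all lie between the WT clones, above each library of WT clone 1 and below each of WT clone 7. The log2 difference between KO and WT was 0.03 (SE 0.07, interval -0.13 to 0.20, edgeR adjusted p = 0.80). Between the WT clones, clone 7 over clone 1, it was 0.24 (SE 0.07, interval 0.08 to 0.40), with an unadjusted p of 0.00715 and an edgeR adjusted p of 0.11. VCP is 1 of the 9 with an unadjusted p below 0.05 in that contrast, 0 of the 9 passed after adjustment, and 0.613% of all tested genes did. UFD1 and NPLOC4, which together recruit ubiquitinated substrates to VCP, had log2 differences between KO and WT of -0.06 (SE 0.07) and -0.04 (SE 0.06).

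UBQLN2 (ENSG00000188021, chromosome X, 56563627 to 56567868, plus strand) is a single-exon gene for ubiquilin 2, which carries ubiquitinated proteins to the proteasome. UBQLN2 was at 108 and 119 CPM in KO clone 1 and at 97.7 and 103 CPM in KO clone 5, against 79.4, 99.6 and 99.4 CPM in WT clone 1 and 96.1 and 110.4 CPM in WT clone 7. The lowest library is WT clone 1 replicate 1, which was also the lowest WT library for OPTN, EWSR1 and PFN1. The log2 difference was 0.14 (SE 0.09, interval -0.05 to 0.33, edgeR adjusted p = 0.30), and 0.08 without that library (edgeR adjusted p = 0.48). Against the mean of the WT clones it was 0.21 in KO clone 1 (SE 0.10, edgeR adjusted p = 0.17) and 0.04 in KO clone 5 (SE 0.10, edgeR adjusted p = 0.84). With replicate number as a block the KO clone 1 value was 0.24 and passed the threshold (edgeR adjusted p = 0.0322). Of the related ubiquilins UBQLN4 fell by 0.29 (SE 0.07, edgeR adjusted p = 0.0067) to 64.6 ± 3.77 CPM in KO, against 79.2 ± 5.28 CPM in WT libraries (SD, n = 4 and 5), a call lost in 3 of 23 other settings. UBQLN1 averaged 176 ± 3.18 CPM in KO and 180.0 ± 7.63 CPM in WT libraries (SD, n = 4 and 5; log2 difference -0.03, SE 0.05, edgeR adjusted p = 0.75).

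PFN1 (ENSG00000108518, chromosome 17, 4945652 to 4949061, minus strand) encodes profilin 1. PFN1 was at 577 and 574 CPM in KO clone 1 and at 481 and 565 CPM in KO clone 5, against 468, 624 and 611 CPM in WT clone 1 and 541 and 615 CPM in WT clone 7. KO clone 5 replicate 1 is low among the KO libraries and WT clone 1 replicate 1 is low among the WT libraries. The log2 difference was -0.06 (SE 0.09, interval -0.26 to 0.15, edgeR adjusted p = 0.72). PFN1 has 10 named pseudogenes in GENCODE 44, of which 1 was in the table, with 166 counts over the 9 libraries, or 0.141% of those of PFN1. TARDBP and SOD1 have 3 named pseudogenes each, none of them in the table, and reads shared with any such copy could have been split by the counting. PFN2, the neuronal profilin, had a log2 difference of 0.21 (SE 0.09, edgeR adjusted p = 0.099), at 127 ± 10.4 CPM in KO and 109 ± 12.6 CPM in WT libraries (SD, n = 4 and 5).

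Per kilobase of annotated exon the 9 genes covered a wide range of levels. PFN1 was the highest, with 343 ± 28.6 CPM per kb in KO and 357 ± 41.9 CPM per kb in WT libraries (SD, n = 4 and 5). SOD1 followed with 87.2 ± 5.46 CPM per kb in KO and 80.0 ± 4.14 CPM per kb in WT libraries. EWSR1 and VCP came next at 46.9 ± 3.54 and 44.8 ± 1.93 CPM per kb in KO libraries, and at 45.8 ± 3.83 and 43.7 ± 4.14 CPM per kb in WT libraries, so these neighbours do not differ beyond their spread. TARDBP was at 26.9 ± 1.63 CPM per kb in KO and 27.6 ± 1.67 CPM per kb in WT libraries, and UBQLN2 at 25.2 ± 2.08 CPM per kb in KO and 22.9 ± 2.64 CPM per kb in WT libraries. TARDBP was above UBQLN2 in 3 of 4 KO and in 5 of 5 WT libraries, although their ranges overlap in both genotypes. TAF15 was at 14.0 ± 1.02 CPM per kb in KO and 12.6 ± 0.965 CPM per kb in WT libraries. OPTN, at 3.12 ± 0.333 CPM per kb in KO and 2.49 ± 0.436 CPM per kb in WT libraries, and C9orf72, at 1.51 ± 0.200 CPM per kb in KO and 1.35 ± 0.0768 CPM per kb in WT libraries, were the lowest. The exon length takes in every annotated transcript. The 9 genes together held 0.225 to 0.246% of gene counts in KO and 0.223 to 0.246% in WT libraries.

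Between the KO clones, 0 of the 9 genes passed (edgeR), with 0 at an unadjusted p below 0.05, beside 0.692% of all tested genes that passed. The log2 differences, clone 5 minus clone 1, ran from -0.22 for OPTN to 0.06 for C9orf72. In KO clone 1 against the mean of the WT clones 0 passed, with 1 at an unadjusted p below 0.05 (OPTN), and in KO clone 5 0 passed, with 0 at such a p. The shares of all tested genes called in these contrasts were 20.1% and 19.4%. With replicate number as a block, 2 of the 9 passed in KO clone 1, OPTN and UBQLN2, and 0 in KO clone 5. These contrasts share the WT libraries. TAF15, SOD1, OPTN, C9orf72, UBQLN2 and VCP were above 0 in both, and TARDBP was below 0 in both, at -0.02 in KO clone 1 and -0.08 in KO clone 5.

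**Figure D3:**
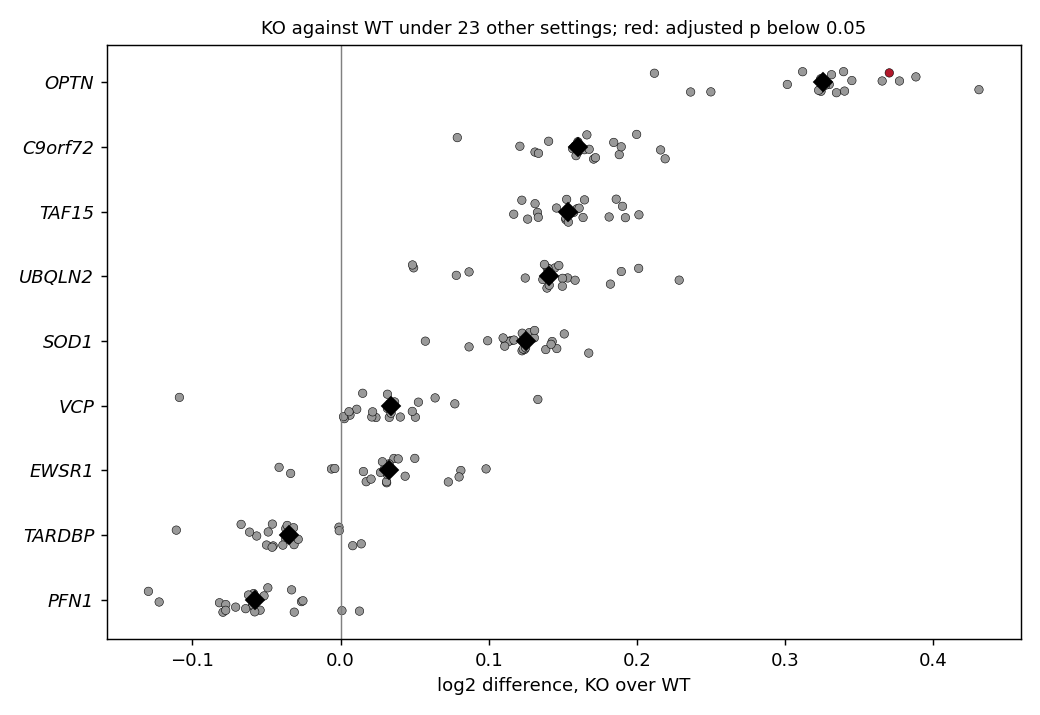
Log2 differences of the 9 genes (horizontal axis, KO over WT) as reported (diamonds) and under 23 other settings each (circles; red where the adjusted p was below 0.05). One circle is red, OPTN with replicate number as a block, and OPTN, C9orf72, TAF15, UBQLN2 and SOD1 stayed above 0 in all 23.

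Across the 23 other settings tried, which left out libraries or clones or changed the scaling, filter or test, OPTN ranged from 0.21 to 0.43 and TAF15 from 0.12 to 0.20. C9orf72 ranged from 0.08 to 0.22, UBQLN2 from 0.05 to 0.23 and SOD1 from 0.06 to 0.17. The other 4 genes crossed 0, EWSR1 in 4 settings, TARDBP and PFN1 in 2 each and VCP in 1. The authors' deposited table holds log2 differences of 0.32 for OPTN (adjusted p = 0.082), 0.15 for TAF15 (adjusted p = 0.165) and -0.04 for TARDBP (adjusted p = 0.795).

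Among 38 tested ALS-linked genes outside the 9, 3 rose and 5 fell, MATR3 being 1 of the falls, with a median log2 difference of -0.01. This share of 21.1% lies near the 23.2% of all tested genes. It counts MATR3, the gene knocked out, and would be lower without it. Of the 4 falls other than MATR3, 2 were left without KO clone 1 replicate 1, without KO clone 5 replicate 1 or without WT clone 7 replicate 1. ERLIN1, an endoplasmic reticulum protein that takes part in protein degradation there, fell by 1.36 (SE 0.07, edgeR adjusted p = 8.0e-08) to 13.3 ± 0.632 CPM in KO, against 34.1 ± 1.86 CPM in WT libraries (SD, n = 4 and 5). FIG4, a phosphoinositide phosphatase, rose by 1.42 (SE 0.08, edgeR adjusted p = 3.0e-07) to 33.9 ± 2.40 CPM in KO, against 12.7 ± 1.21 CPM in WT libraries. ERBB4, a receptor tyrosine kinase for neuregulins, fell to between 0 and 0.404 CPM in KO, against 3.04 to 4.61 CPM in WT libraries (edgeR adjusted p = 9.7e-05). TBK1, the kinase that acts on OPTN, and SQSTM1, a receptor related to it in function, had log2 differences of 0.13 (SE 0.08, edgeR adjusted p = 0.31) and 0.12 (SE 0.09, edgeR adjusted p = 0.43).

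**Figure D4:**
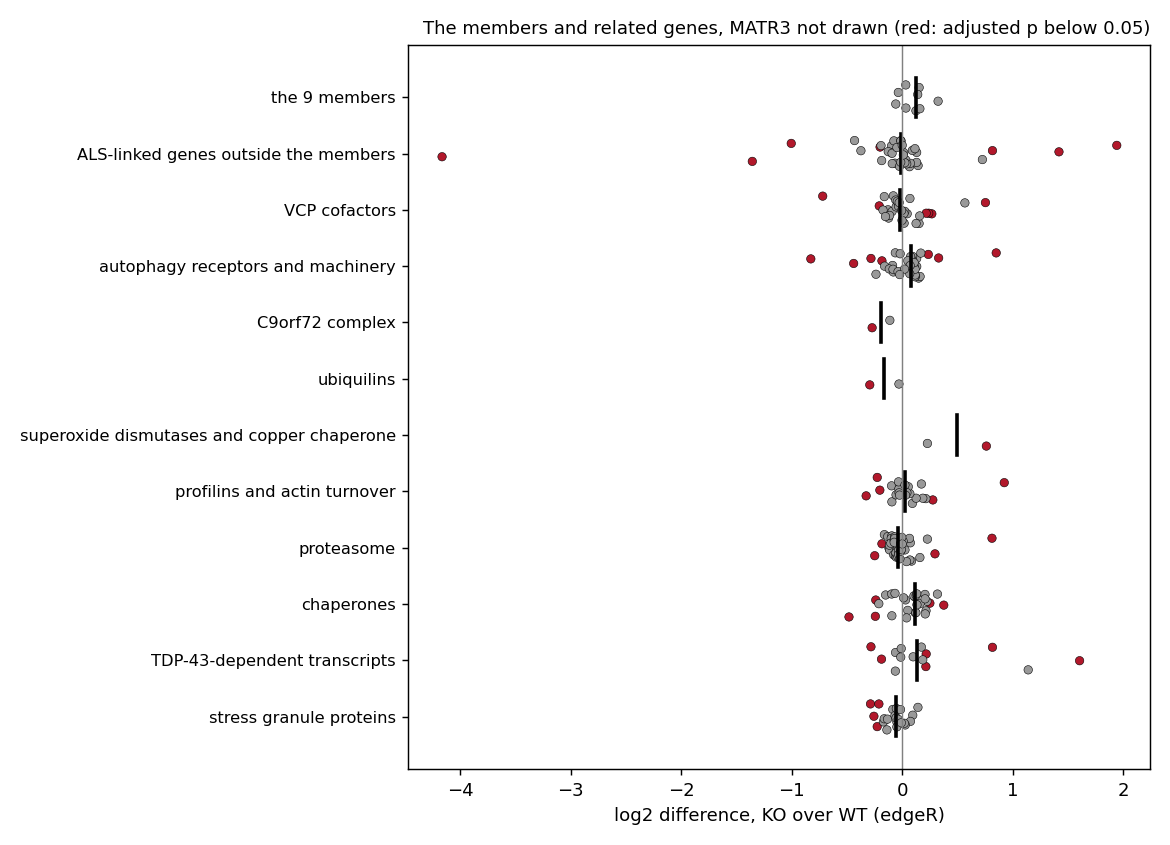
Log2 differences (horizontal axis, KO over WT) of the 9 genes and of the related lists; each circle is a gene, red where the adjusted p was below 0.05, and vertical bars are medians; MATR3 is not drawn. No circle of the 9 is red, and the 9 span -0.06 to 0.33, whereas single related genes reach -4.16 (ERBB4).

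In the lists around the 9 genes, most members did not pass either. Of 229 distinct related genes tested, with MATR3 left out, 45 passed, 20 higher and 25 lower (19.7%, beside 23.2% of all tested genes), and with the libraries of each clone summed 11 did. Without KO clone 1 replicate 1 there were 27. Of 30 VCP cofactors 4 rose and 2 fell (median -0.02), among them SVIP, an inhibitor of VCP-dependent degradation, which fell by 0.72 (SE 0.13, edgeR adjusted p = 0.0021), and the deglycosylating enzyme gene NGLY1, which rose by 0.27 (SE 0.06, edgeR adjusted p = 0.0074). DERL3 rose by 0.75 (SE 0.16) and UBXN7 fell by 0.21 (SE 0.06). The 4 rises among these cofactors came to 2 with replicate number as a block, without KO clone 5 replicate 1 or without WT clone 1 replicate 3, and to 0 with clones summed or without all of KO clone 1. The 2 falls came to 1 with the block, with clones summed, and without KO clone 1 replicate 1, KO clone 5 replicate 2 or WT clone 1 replicate 2. Of 37 autophagy genes 3 rose and 4 fell (median 0.08), with the receptor gene NBR1 up by 0.33 (SE 0.06, edgeR adjusted p = 0.0019), the elongation gene ATG5 up by 0.85 (SE 0.08), and ATG4B, a protease that processes LC3, down by 0.28 (SE 0.05, edgeR adjusted p = 0.0019). WIPI1, which binds the forming autophagosome membrane, was down by 0.83 (edgeR adjusted p = 0.010). The 3 rises and 4 falls among autophagy genes came to 1 and 0 with clones summed, and to 2 and 2 without all of KO clone 1.

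Of 40 proteasome genes 2 rose and 2 fell (median -0.04), and PSMB1 rose most, by 0.81 (SE 0.07, edgeR adjusted p = 3.3e-06). Of 28 chaperone genes 2 rose and 3 fell (median 0.12), BAG2, a regulator of HSP70, by 0.48 (SE 0.08, edgeR adjusted p = 0.0012), while DNAJB1, an HSP40 co-chaperone, rose by 0.38 (SE 0.10). Of 22 genes of actin turnover 2 rose and 3 fell (median 0.03), with WASF1 up by 0.92 (SE 0.09) and the formins DIAPH3 and DIAPH1 down by 0.33 (SE 0.06) and 0.20 (SE 0.05). Of 22 stress granule genes 4 fell (median -0.05): PABPC4, UBAP2L, NUFIP2 and ZC3HAV1, by 0.26, 0.29, 0.23 and 0.21. Also past the threshold were TWF2, PSMD10 and DNAJA2, up by 0.28, 0.30 and 0.25, and PSMD11, PSMB4 and HSPA4L, down by 0.25, 0.18 and 0.24. The calls of UBXN7, TWF2, PSMD11, PSMB4 and HSPA4L were lost in 8 to 13 of 23 other settings. Of 14 transcripts whose splicing is known to depend on TDP-43, 4 rose and 2 fell (median 0.14). CELF5 rose by 1.61 (SE 0.29), UNC13A by 0.82 (SE 0.21) and MADD by 0.22, while ATG4B fell. CELF5 and UNC13A rest on 9 to 96 and 12 to 49 counts per library. UNC13A passed in KO clone 5 (edgeR adjusted p = 0.032) but not in KO clone 1 (edgeR adjusted p = 0.078). Shares called were 10% (proteasome), 17.9% (chaperones), 22.7% (actin turnover), 18.2% (stress granules) and 42.9% (these transcripts). Of all tested genes 23.2% were called. Gene counts do not resolve the cryptic exons for which UNC13A and ATG4B are known. These small numbers of calls moved with single libraries. Without 1 library at a time, the proteasome falls ran from 0 to 2, with 0 left on leaving out either KO clone 5 library or either WT clone 7 library, and 1 on leaving out either KO clone 1 library or WT clone 1 replicate 1 or 3. The chaperone rises ran from 1 (without either KO clone 1 library) to 4 (without WT clone 7 replicate 2), and the chaperone falls came to 1 without KO clone 1 replicate 1 or either WT clone 7 library. The actin falls came to 1 without either KO clone 1 library, and the actin rises came to 1 without any 1 of the KO libraries, without WT clone 1 replicate 3 or with the block. The stress granule falls came to 2 when either KO clone 1 replicate 1 was left out, or KO clone 5 replicate 2. The proteasome rises came to 1 when replicate 1 of either KO clone was left out, and to 3 with the block. The falls among TDP-43-dependent transcripts came to 1 with the block and without any 1 of 7 of the 9 libraries. With clones summed, 1 rise and 0 falls were left among these transcripts, and 2 rises and 1 fall without all of KO clone 1. Of all tested genes, 4123 were called as reported, 1639 with clones summed and 2338 without all of KO clone 1.

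FIG4, ATG5, WASF1, SOD2 and PSMB1, the 5 related genes on chromosome 6 beyond 100 Mb, all rose. In that stretch, chosen after its values were seen, 221 of 285 tested genes rose (77.5%, beside 10.3% of genes elsewhere), with a median log2 difference of 0.85. By clone the median came to 0.83 (KO clone 1) and 0.90 (KO clone 5), beside 0.04 for WT clone 7 over WT clone 1. The part that this regional rise has in those 5 values was not tested, and none of the 9 genes lies on chromosome 6.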

How the data were processed

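Raw read counts per gene and repeat were deposited by the authors, with whole numbers that were not normalized, and a second table deposited by the authors holds their log2 fold changes and p-values. Per the labels' protocols, total RNA was depleted of ribosomal RNA and sequenced from directional libraries with molecular-identifier adaptors. Per the submitters' processing notes, STAR 2.5.2a, DESeq2 1.22.2, DESeq and hg38 were used. The sources used here give neither strand setting, annotation release nor use of molecular identifiers. Whether the counting kept reads of overlapping genes on opposite strands apart is therefore not known.

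Counts were tested with edgeR 4.0.16 (R 4.3.3, TMM scaling, filterByExpr with a minimum count of 10, quasi-likelihood F test) by genotype over all 9 libraries, with Benjamini-Hochberg adjustment over 18829 rows. Contrasts of clones came from a fit with 4 groups. Library totals of 16103754 to 34407309 counts set the precision, and intervals cover the libraries used. Alternatives were DESeq2 1.42.0, other scaling, filters and dispersion, replicate number as a block, summed clones, and leaving out libraries or clones.

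Same-numbered libraries deviated together from their clone means in all 12 comparisons (r = 0.12 to 0.52), so the numbers were taken to pair the libraries. In clones of 2 libraries the deviations mirror each other and are not independent. The reported tests and intervals did not use this pairing, which entered only where replicate number was a block. There WT clone 1 replicate 3, the only library of its number, drops out of the comparison. Results with the block thus differ from those reported by the pairing and by this library together. The numbers come from the labels. Replicates of a clone did not agree within sampling noise, so none was counted as a duplicate.

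The 9 genes and the lists were chosen with earlier results of these data known. Named related genes were, of each list, the called genes with the 4 smallest p-values, and partners or relatives of the 9, of which 1 is not reported here. As 0 of the 9 were called, no genes of similar pattern were named. Positions are from GENCODE 44 (20689 of 21003 genes), with SOD2 placed from RefSeq GRCh38.p14.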

Additional observations from a re-analysis of the deposited data

Results flagged for a closer look

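A library far from the others of its genotype was found in 5 of 104 groups examined (52 genes, KO and WT each), and chance gives about 1 in 20 groups. Among the 9 ALS-linked genes it was PFN1, at 481 CPM in KO clone 5 replicate 1, against 565 to 577 CPM in the 3 other KO libraries. DIAPH3 was at 45.7 CPM in KO clone 5 replicate 1, against 41.9 to 42.3 CPM in the other KO libraries. PFN2 was at 111 CPM in KO clone 5 replicate 2, against 132 to 133 CPM in the other KO libraries, and at 131 CPM in WT clone 7 replicate 1, against 101 to 110 CPM in the other WT libraries. DNAJB1 was at 129 CPM in KO clone 5 replicate 1, where the other KO libraries were all at 142 CPM.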

How the results depend on the processing

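Of the counts of calls among the 9 genes, all genes and all related genes together, 108 stayed within 1.5 times the reported count and 10 did not; of the counts of rises and of falls in single related lists, 393 did and 113 did not. With replicate number as a block, 1 of the 9 genes was called between KO and WT (OPTN, 0.37) and 2 in KO clone 1 (OPTN, 0.46, and UBQLN2, 0.24), where 0 were reported; the block changed no other call of the 9. Leaving out 1 library at a time, 0 to 1 of the 9 were called in KO clone 1. All genes called, 4123 as reported, came to 1639 with clones summed, 2338 without all of KO clone 1 and 2614 without all of KO clone 5. Related genes called, 45 as reported, came to 11, 20 and 18 in the same settings, to 27 to 43 without 1 library and to 40 without chromosome 6 beyond 100 Mb, an alternative chosen after seeing the data. The cause was not tested. Signs turned for values near 0 and for SQSTM1, which was reported at 0.12 and was called in 1 of 23 other settings. Without 1 library TARDBP ran from -0.061 to 0.0082, EWSR1 from -0.0061 to 0.081, PFN1 from -0.12 to 0.00095, and UBQLN2 in KO clone 5 from -0.011 to 0.088. Without all of WT clone 7 TARDBP was 0.014, NPLOC4 0.022 and UBQLN1 0.011. Without all of WT clone 1 EWSR1 was -0.041, VCP -0.11 and SQSTM1 -0.069. EWSR1 was -0.034 without all of KO clone 1, and PFN1 0.013 without all of KO clone 5. Depth limits OPTN and C9orf72 most, with as few as 151 and 140 counts in a library.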
